A study of Homo sapiens with 6 samples.

Results

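Genes of the lysosome were examined in THP-1 cells, a human monocytic leukaemia line, cultured with interleukin-6 (IL-6) or as controls. IL-6 is a cytokine of inflammation that signals through its receptor and the transcription factor STAT3. The genes were chosen by name: 11 cathepsins, 13 other hydrolases and the activator proteins that serve them, 10 proteins of the lysosomal membrane and its proton pump, and 3 others, namely NPC2, GRN and TFEB. All 37 had a value in each of the 6 libraries, out of 60325 genes listed in each deposited table and 17388 genes with 6 values. The groups were recombinant human IL-6 for 6, 24 or 48 h and control culture for 6, 24 or 48 h. All 6 libraries came from the same cell line, and each group was 1 library. The series title places the cells beside lung monocytes of patients with chronic obstructive pulmonary disease that carry the IL-6 receptor, but only the cell line was measured here.

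The lysosome is the acid compartment in which a cell breaks down proteins, lipids and sugars. Cathepsins are its proteases, most of them cysteine proteases of the papain family; the vacuolar proton pump acidifies the lumen so that they can act; and heavily glycosylated membrane proteins line the wall. In monocytes and macrophages these enzymes digest engulfed material and process antigens, and the transcription factor TFEB drives many of their genes through an E-box-type element in the promoter.

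The deposited values are log2 values that the authors centred on each gene, so a value of 0 is the gene's own mean over the 6 libraries and levels of different genes cannot be compared on this scale. Sequencing depth is unknown. A level in arbitrary units was recovered from the ratios of the deposited values for 90.3% of the genes with 6 values, and the 13511 genes whose level averaged 1 or more, or could not be recovered and was taken as high, were tested. Among the members 36 were tested, and LGMN, with a mean level of 0.46, was not. With 1 library a group, a difference at a single time is given with no p-value, and a difference of at least 1.5-fold is counted. Over the 3 time-matched pairs, and over both arms between times, limma's moderated test was used with Benjamini-Hochberg adjustment over all tested genes. With no replicate cultures, its spread came from how the IL-6 difference varied between times (2 residual degrees of freedom), moderated over genes. A p-value thus reflects these 6 cultures alone and does not measure the spread between replicate cultures. An IL-6 effect that changes with time widens its own SE. The sign ± marks the SE of an estimate throughout. In RNA from whole cultures, fewer expressing cells and less RNA per cell cannot be told apart.

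Monocyte markers had the values and levels to be tested, and few of the other markers given here did. Untested does not mean absent: 2 T and NK cell markers had values in all 6 libraries. All 12 monocyte markers (CD14, LYZ, ITGAM, CD33, CSF1R, SPI1, FCGR1A, MPO, CYBB, CD4, LILRB4 and CEBPA) were tested. Of 10 T and NK cell markers 0 were tested, and CD3E, CD2, CD8B and KLRD1 had no value in any library. Of 8 erythroid and platelet markers 1 was tested, GP9, as was 1 of 10 epithelial and fibroblast markers, KRT8. The summed level of the 3 monocyte markers with a recovered level spanned 12.9 to 26.8 in IL-6 libraries and 13.8 to 18.1 in control libraries. The other monocyte markers had no recovered level and are not in this sum. GP9 alone spanned 6.65 to 9.38 and 5.21 to 14.1. The 2 T and NK cell markers with a level summed to 0.282 to 1.74 and 1.76 to 2.75, and 2 epithelial and fibroblast markers to 1.01 to 2.64 and 1.91 to 2.26. The median tested gene stood between -0.04 and 0.01 in the IL-6 libraries and between -0.05 and 0.09 in the control libraries.

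The promoters of the members were read from RefSeq entries of build GRCh38.p14, each covering 250 bases before and 50 bases after the transcription start. Of the 37 genes, 27 matched an entry. The core of the element that TFEB binds, CACGTG, was searched as letters; it reads the same on both strands. It stood in 9 of the 27 promoters (33.3%): ATP6V0D1, CD63, CTSA, CTSD, CTSF, GAA, LAMP1, MCOLN1 and NEU1. Of the 27305 genes in the whole table, 8.77% hold it, and of the genes on the other lysosomal lists 20 of 69 (29.0%) do. The longer palindrome TCACGTGA, which contains the core, stood in 5 members (18.5%) and in 1.18% of all genes. That palindrome with a G before it and a C after it stood in GAA and MCOLN1 (7.41% of members, 0.421% of all genes). A match is a description of these letters and not a measured binding site.

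The 4 promoters with more than 1 run that include the longer palindrome are printed below from 250 bases before the start to 10 bases after it, 5′ to 3′ on the strand of the gene, with CACGTG in capitals. They are chr13:113296989-113297248, chr17:80101331-80101590, chr19:7522374-7522633 and chr20:45891085-45891344 of GRCh38.p14, all on the plus strand.
LAMP1: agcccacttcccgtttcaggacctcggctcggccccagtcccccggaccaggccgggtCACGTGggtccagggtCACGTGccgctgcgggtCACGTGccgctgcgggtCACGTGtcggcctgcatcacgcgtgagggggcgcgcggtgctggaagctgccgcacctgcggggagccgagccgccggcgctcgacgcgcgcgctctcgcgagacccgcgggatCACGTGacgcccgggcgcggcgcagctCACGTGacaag
GAA: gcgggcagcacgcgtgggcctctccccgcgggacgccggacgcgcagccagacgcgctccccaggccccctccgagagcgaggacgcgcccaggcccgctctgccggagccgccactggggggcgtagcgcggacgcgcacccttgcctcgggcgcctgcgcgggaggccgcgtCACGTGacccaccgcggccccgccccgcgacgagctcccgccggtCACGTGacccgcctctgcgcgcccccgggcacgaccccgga
MCOLN1: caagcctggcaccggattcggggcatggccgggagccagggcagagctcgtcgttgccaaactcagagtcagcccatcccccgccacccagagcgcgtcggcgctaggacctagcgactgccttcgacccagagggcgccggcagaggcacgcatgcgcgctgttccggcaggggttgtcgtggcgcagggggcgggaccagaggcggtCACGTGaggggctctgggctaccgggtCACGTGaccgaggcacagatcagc
CTSA: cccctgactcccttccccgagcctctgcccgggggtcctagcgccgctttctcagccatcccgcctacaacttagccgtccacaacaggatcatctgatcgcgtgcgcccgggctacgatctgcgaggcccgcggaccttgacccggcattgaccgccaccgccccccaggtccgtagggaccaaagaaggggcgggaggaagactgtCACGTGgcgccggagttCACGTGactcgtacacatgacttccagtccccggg

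LAMP1 held 6 runs, beginning 192, 176, 159, 142, 28 and 1 bases before the start, of which the 2 nearest the start were the longer palindrome. In GAA they began 76 and 31 bases before the start, in MCOLN1 41 and 14, and in CTSA 42 and 25. The other 5 members with a run are shown as 30-base windows centred on it, all from minus-strand genes: ATP6V0D1 at chr16:67481199-67481228, CTSD at chr11:1763957-1763986, CTSF at chr11:66568712-66568741 and chr11:66568640-66568669, NEU1 at chr6:31862930-31862959 and CD63 at chr12:55729172-55729201.
ATP6V0D1: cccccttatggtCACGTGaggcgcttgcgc
CTSD: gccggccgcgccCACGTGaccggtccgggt
CTSF, farther from the start: acatataacaagCACGTGatagaggtcagt
CTSF, nearer to the start: ccctgcgcgcccCACGTGcctcctgtaaac
NEU1: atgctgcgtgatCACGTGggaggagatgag
CD63: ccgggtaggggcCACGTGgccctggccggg

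**Figure D1:**
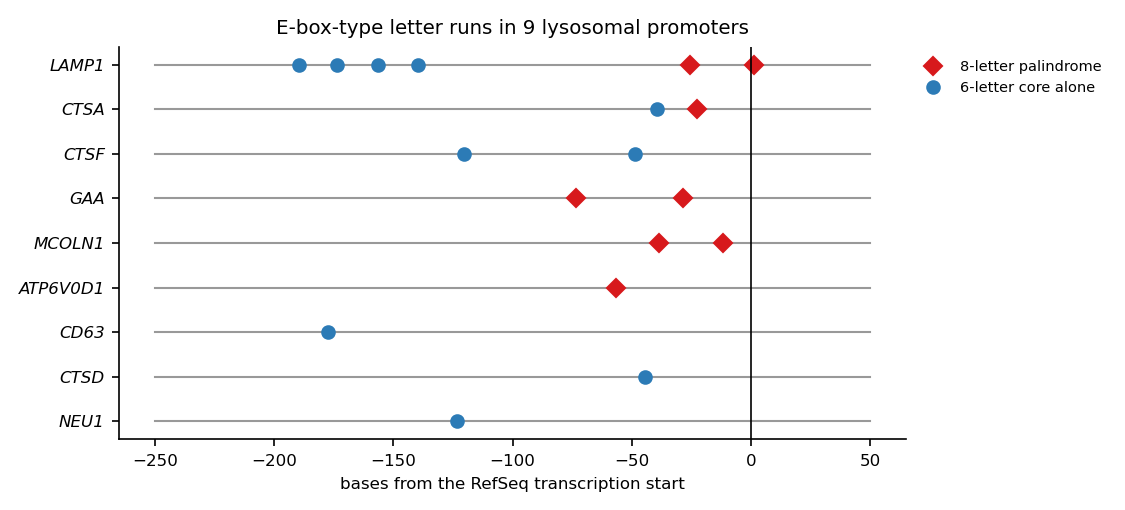
Positions of CACGTG in the promoters of 9 lysosomal genes; the x axis is the distance in bases from the RefSeq transcription start and each grey line is the promoter window of a gene. Red diamonds mark the 8-letter palindrome and blue circles the 6-letter core alone; LAMP1 has 6 runs and ATP6V0D1, CD63, CTSD and NEU1 have 1 each.

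The 9 members with the core and the 18 matched members without it were set side by side at each time, as a description. Members with the core had a median IL-6 minus control difference of -0.03 at 6 h, -0.15 at 24 h and 0.21 at 48 h. Members without it had medians of -0.17, -0.25 and -0.01 at those times. The ranges overlapped at each time: at 48 h members with the core spanned -0.45 to 0.54 and members without it -0.43 to 0.83.

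With IL-6 the lysosomal genes as a group sat a little below control at 6 and 24 h, and at 48 h they were split evenly. At 6 h 29 of the 36 tested members were lower with IL-6 (80.6%), where 47.7% of all tested genes were lower, and their median log2 difference was -0.15 against 0.02 over all tested genes. At 24 h 27 of 36 were lower (75.0%), where 56.4% of all tested genes were, with a median of -0.27 against -0.07. At 48 h 18 were higher and 18 lower, where 55.2% of all tested genes were lower, with a median of 0.02 against -0.04. Past 1.5-fold, 1 member was lower at 6 h (CTSK), 5 were lower at 24 h (CTSK, CTSF, GAA, MCOLN1 and GRN), and at 48 h CTSB and NPC1 were higher and CTSK lower. Over all tested genes 8.47% were at least 1.5-fold higher and 8.55% at least 1.5-fold lower at 6 h, 7.93% and 12.9% at 24 h, and 8.64% and 9.19% at 48 h.

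Over the 3 pairs together 0 of 36 members passed limma's test at an adjusted p of 0.05, a threshold that 0.244% of all tested genes passed. At an unadjusted p under 0.05, NPC1 was higher with IL-6 and CTSK, CTSS, GAA, CD68, NPC2 and GRN were lower, which is 1 and 6 of 36 members where 3.72% and 5.31% of all tested genes were higher and lower.

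**Figure D2:**
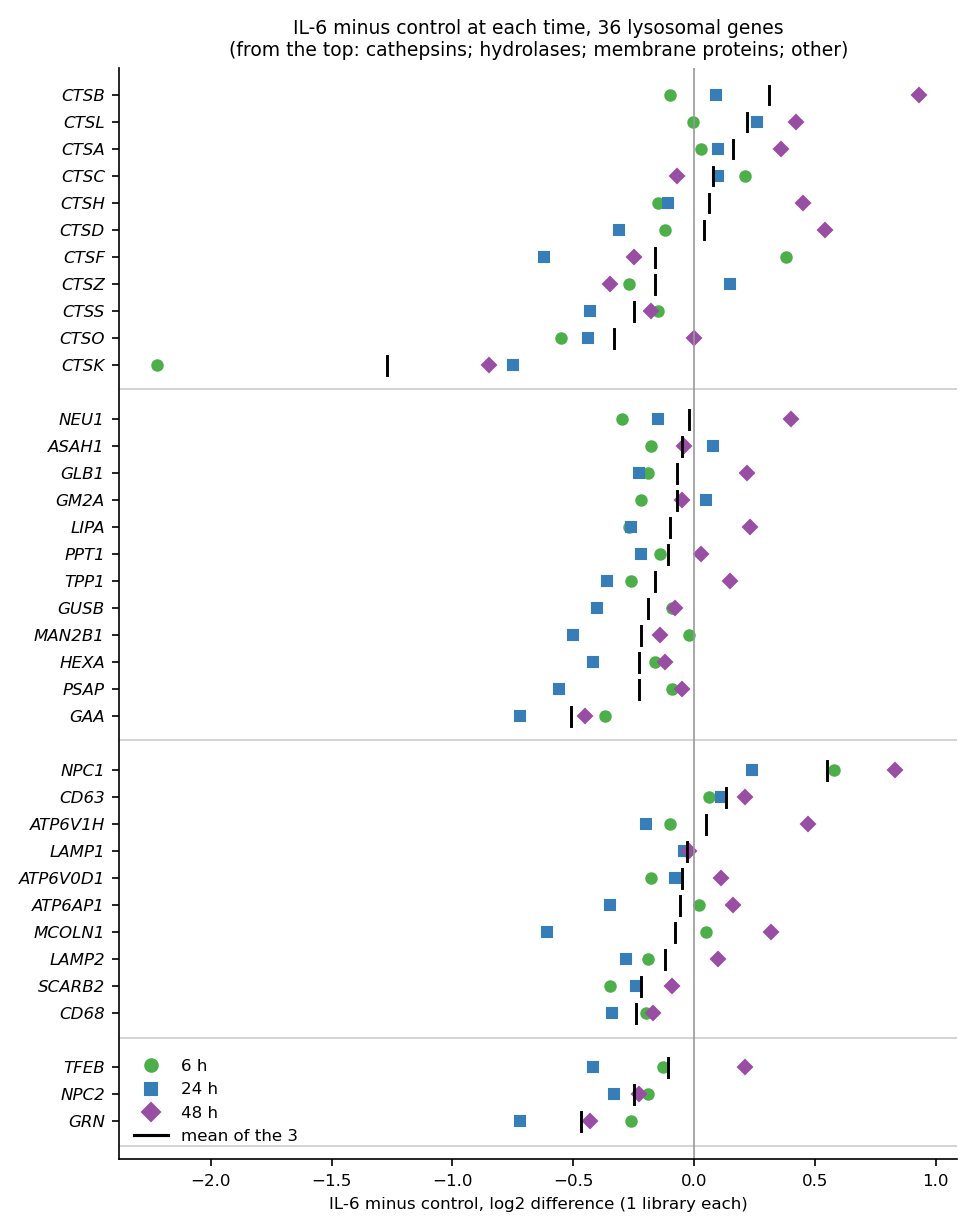
IL-6 minus control log2 difference of each of the 36 tested members at 6 h (green circles), 24 h (blue squares) and 48 h (purple diamonds), with the mean of the 3 as a black bar; 1 library stands behind each value of each arm, so there is no error bar. From the top the genes are cathepsins, hydrolases with their activator proteins, membrane proteins with the proton pump, and others; every hydrolase is below 0 at 6 h, and CTSK stands farthest left at -2.22.

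The signs at the 3 times followed 2 main patterns. IL-6 was lower at all 3 times in 13 of 36 members (36.1%, against 18.2% of all tested genes): CTSK, CTSO, CTSS, LAMP1, CD68, NPC2, HEXA, GAA, GUSB, MAN2B1, PSAP, SCARB2 and GRN. It was lower at 6 and 24 h and higher at 48 h in 11 members (30.6%, against 13.5%): CTSD, CTSH, LAMP2, GLB1, LIPA, TPP1, PPT1, TFEB, ATP6V0D1, ATP6V1H and NEU1. It was higher at all 3 times in CTSA, CD63 and NPC1 (8.33%, against 12.6%). With the library medians set equal, CTSO and LAMP1 left the first pattern, which then held 11 members (30.6%, against 15.2%). All 3 IL-6 libraries lay below all 3 control libraries in 6 members, CTSK, CTSS, CD68, GAA, PSAP and GRN (16.7%, against 5.71% of all tested genes), and above them in CD63 (2.78%, against 3.52%).

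**Figure D3:**
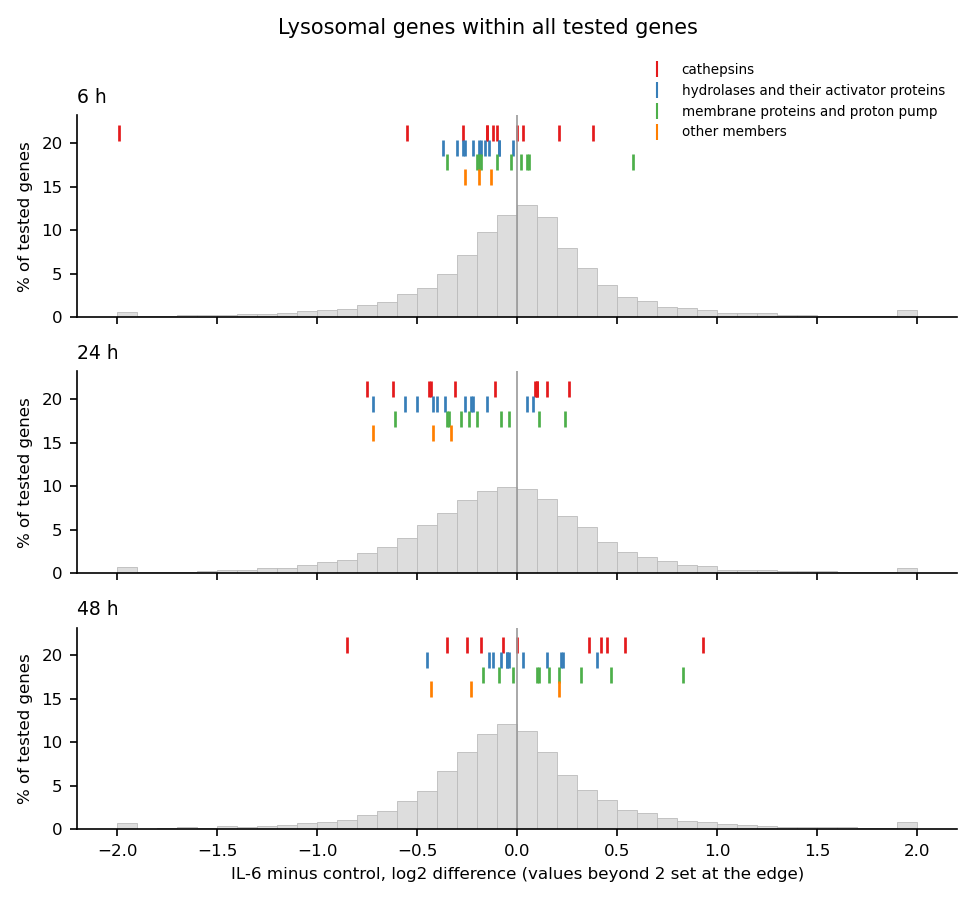
Distribution of the IL-6 minus control log2 difference over the 13511 tested genes (grey bars, percent of genes per bin of 0.1; values beyond 2 are set at the edge) at 6, 24 and 48 h, with each lysosomal member as a coloured tick by class. At 6 and 24 h most ticks lie left of 0 (29 and 27 of 36), and at 48 h 18 lie on either side.

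Cathepsins differed in both directions. Over the 3 pairs 6 of the 11 had a positive estimate and 5 a negative one, with a median of 0.04. Of the 11, 0 passed the test. At an unadjusted p under 0.05, limma gave 2 lower, CTSK and CTSS, and 0 higher. Of all tested genes 5.31% were lower and 3.72% higher at that level. Their median IL-6 minus control differences were -0.12, -0.11 and -0.00045 at 6, 24 and 48 h. At 48 h 5 were higher and 6 lower, where 55.2% of all tested genes were lower. CTSB at 48 h was the 1 cathepsin at least 1.5-fold higher at any time, and 8.64% of all tested genes were at 48 h.

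CTSK encodes cathepsin K, the collagen-degrading protease best known from osteoclasts, and lies on chromosome 1 (150794880 to 150809577, GRCh38, minus strand, by the tables). Its log2 values were -1.55, 0.17 and -0.53 in IL-6 libraries at 6, 24 and 48 h, against 0.67, 0.93 and 0.32 in control libraries. IL-6 was below control at every time and the arms did not overlap. The differences were -2.22, -0.75 and -0.85, and the estimate over the 3 pairs was -1.27 ± 0.41 (SE; limma adjusted p = 0.361). CTSK was scarce, with a mean recovered level of 2.13, the lowest recovered among the tested members. The difference at 6 h rests on a level of 0.632 in the IL-6 library. With log2(level + 1) the estimate over the pairs was -0.79.

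CTSB encodes cathepsin B, an abundant endo- and exopeptidase of phagocytes (chromosome 8, 11842524 to 11869533). Its values were -0.26, 0.02 and 0.71 in IL-6 libraries at 6, 24 and 48 h, against -0.16, -0.08 and -0.23 in control libraries. The 48 h IL-6 library alone stood apart, and the other 5 values lay within -0.26 to 0.02. The difference was 0.93 at 48 h, against -0.1 at 6 h and 0.09 at 24 h, and the estimate over the pairs was 0.31 ± 0.19 (limma adjusted p = 0.695), which without the 48 h pair was -0.0038.

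CTSD, the aspartic protease cathepsin D, had the same shape at 48 h. Its values were -0.1, -0.37 and 0.53 in IL-6 libraries, against 0.02, -0.06 and -0.01 in control libraries, so IL-6 was lower at 6 and 24 h and 0.54 higher at 48 h. Cathepsin H (CTSH), an aminopeptidase, was 0.45 higher with IL-6 at 48 h, and cathepsin L (CTSL), an endopeptidase, was 0.42 higher. CTSL is close in sequence to CTSV, and how shared reads were assigned is not given in the sources used here.

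CTSF encodes cathepsin F (chromosome 11, 66563464 to 66568879), and its promoter holds 2 runs of CACGTG. Its values were -0.41, -0.08 and 0.24 in IL-6 libraries, against -0.79, 0.54 and 0.49 in control libraries. The control library at 6 h was the lowest of the 6, and the IL-6 minus control differences were 0.38, -0.62 and -0.25. The estimate over the pairs was -0.16 ± 0.26 (limma adjusted p = 0.905). CTSF was also the cathepsin with the largest estimate for 48 h minus 6 h over both arms, 0.96 ± 0.32 (limma adjusted p = 0.124).

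CTSO, cathepsin O, a little-studied cysteine protease, had values of -0.21, -0.4 and 0.12 in IL-6 libraries and 0.34, 0.04 and 0.12 in control libraries. Its differences were -0.55 and -0.44 at 6 and 24 h, and at 48 h the arms met. Its estimate was -0.33 ± 0.19 (limma adjusted p = 0.665). CTSS, cathepsin S, the protease that finishes the trimming of the invariant chain in antigen-presenting cells, was lower with IL-6 at each time without overlap, with differences of -0.15, -0.43 and -0.18 and an estimate of -0.25 ± 0.11 (limma adjusted p = 0.539). CTSA, the carboxypeptidase that protects beta-galactosidase and neuraminidase, was higher with IL-6 by 0.03, 0.1 and 0.36. NEURL2 and PLTP overlap CTSA on the other strand. CTSC, which activates granule serine proteases, differed by 0.21, 0.1 and -0.07, and CTSZ, a carboxypeptidase, by -0.27, 0.15 and -0.35.

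**Figure D4:**
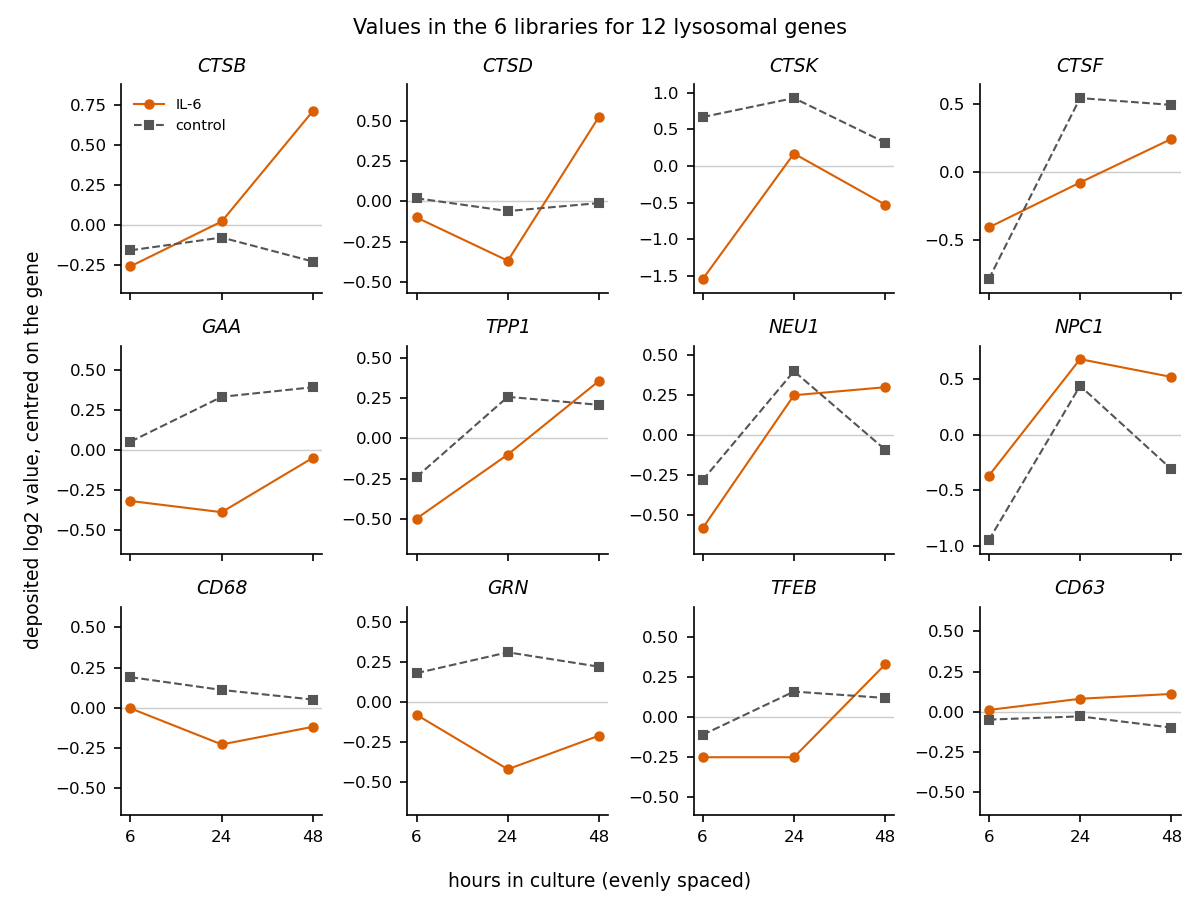
Deposited log2 values, centred on each gene, of 12 lysosomal genes in the 6 libraries: IL-6 (orange circles, solid line) and control (grey squares, dashed line) at 6, 24 and 48 h; 1 library per point and no error bar, and the y axes differ between genes. CTSB and CTSD stand apart in the 48 h IL-6 library, GAA, CD68 and GRN are lower with IL-6 at each time, and NPC1 is lowest at 6 h in both arms.

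Among the hydrolases, the direction at 6 h was uniform and the size was small. All 12 tested hydrolases were lower with IL-6 at 6 h, from -0.37 (GAA) to -0.02 (MAN2B1), with a median of -0.19. Of all tested genes 47.7% were lower at 6 h. The direction was not particular to these members: of 33 other lysosomal hydrolases 26 were lower at 6 h, with a median of -0.14. At 24 h 10 of 12 were lower (56.4% of all tested genes were), with a median of -0.31. At 48 h 7 of 12 were, a share near the 55.2% of all tested genes, with a median of -0.05. Over the 3 pairs all 12 estimates were negative (56.0% of all tested genes had a negative estimate), and 0 passed the test. At an unadjusted p under 0.05, limma gave 1 lower, GAA, where 5.31% of all tested genes were lower. Past 1.5-fold, GAA was lower at 24 h, where 12.9% of all tested genes were, and 0 others were past it at any time.

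GAA encodes acid alpha-glucosidase, which breaks down glycogen in the lysosome (chromosome 17, 80101556 to 80119881, plus strand), and its promoter holds 2 copies of the longest palindrome searched. Its values were -0.32, -0.39 and -0.05 in IL-6 libraries at 6, 24 and 48 h, against 0.05, 0.33 and 0.39 in control libraries. Each IL-6 library was below every control library. The differences were -0.37, -0.72 and -0.45, and the estimate was -0.51 ± 0.14 (unadjusted p = 0.00442, limma adjusted p = 0.279).

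PSAP encodes prosaposin, the precursor of the saposins that present sphingolipids to their hydrolases. Its values were -0.04, -0.27 and -0.04 in IL-6 libraries, against 0.05, 0.29 and 0.01 in control libraries. The arms did not overlap, but the differences were -0.09 and -0.05 at 6 and 48 h and -0.56 at 24 h. The estimate was -0.23 ± 0.13 (limma adjusted p = 0.626).

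HEXA, the alpha subunit of beta-hexosaminidase, had values of -0.26, -0.12 and 0.03 in IL-6 libraries and -0.09, 0.3 and 0.14 in control libraries. It was lower with IL-6 at each time, with differences of -0.16, -0.42 and -0.12, overlapping arms and an estimate of -0.23 ± 0.11 (limma adjusted p = 0.588). MAN2B1, the lysosomal alpha-mannosidase, and GUSB, beta-glucuronidase, were also lower at each time, most at 24 h (-0.5 and -0.4). GLB1, beta-galactosidase, had values of -0.45, 0.06 and 0.28 in IL-6 libraries and -0.25, 0.29 and 0.06 in control libraries. GLB1, LIPA (acid lipase) and PPT1 (palmitoyl-protein thioesterase) were lower at 6 and 24 h, from -0.27 to -0.14, and 0.03 to 0.23 higher at 48 h. IFIT2 and IFIT3 overlap LIPA on the other strand. ASAH1 (acid ceramidase) and GM2A (the GM2 ganglioside activator) had differences of -0.18 and -0.22 at 6 h and were within 0.08 of control at 24 and 48 h.

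TPP1, tripeptidyl peptidase 1, was the hydrolase that passed a test of time. Its values were -0.5, -0.1 and 0.36 in IL-6 libraries at 6, 24 and 48 h, against -0.24, 0.26 and 0.21 in control libraries. Both arms were lowest at 6 h, and the highest value was that of IL-6 at 48 h. The 48 h minus 6 h estimate over both arms was 0.66 ± 0.15 (limma adjusted p = 0.0414). In this comparison 2.51% of all tested genes were called higher and 1.42% lower, so 1 of 36 members is near the share over all genes. The call was lost with no level filter, equal library medians, no variance trend or non-robust moderation, and without any 1 library other than control 48 h. Without control 48 h ATP6AP1, CTSB, CTSD, GLB1, NEU1 and TPP1, 6 of 36 members, were called higher, as were 4.14% of all tested genes in that fit. An antisense-strand gene overlaps TPP1, and the kit does not mark strand.

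NEU1, the lysosomal neuraminidase, had values of -0.58, 0.25 and 0.3 in IL-6 libraries, against -0.28, 0.4 and -0.09 in control libraries. It was lowest at 6 h in both arms, and its 24 h minus 6 h estimate of 0.75 ± 0.17 did not pass the test (limma adjusted p = 0.0581). The IL-6 minus control differences at the 3 times were -0.3, -0.15 and 0.4.

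LGMN encodes legumain, an asparaginyl endopeptidase that activates cathepsins, and was too scarce to test. Its values were -2.79, -0.06 and 0.9 in IL-6 libraries, against 1.94, 1.21 and -1.2 in control libraries. IL-6 was far lower at 6 h (-4.73), lower at 24 h (-1.27) and higher at 48 h (2.1), all at a mean level of 0.46.

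Among the membrane proteins and pump subunits, 2 of the 10 tested were past 1.5-fold at any time: MCOLN1 was lower with IL-6 at 24 h and NPC1 higher at 48 h. Of all tested genes 12.9% were that much lower at 24 h and 8.64% that much higher at 48 h. At 6 h 6 of the 10 tested were lower with IL-6, at 24 h 8 and at 48 h 3, and the median differences were -0.07, -0.22 and 0.13. Of all tested genes 47.7%, 56.4% and 55.2% were lower at those times. Over the 3 pairs 3 estimates were positive and 7 negative (56.0% of all tested genes were negative), with a median of -0.06, and 0 passed the test. At an unadjusted p under 0.05, limma gave 1 higher, NPC1, and 1 lower, CD68. Of all tested genes 3.72% were higher and 5.31% lower at that level.

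NPC1 encodes the membrane protein that exports cholesterol from the lysosome (chromosome 18, 23506184 to 23586506, minus strand). Its values were -0.37, 0.68 and 0.52 in IL-6 libraries at 6, 24 and 48 h, against -0.95, 0.44 and -0.31 in control libraries. IL-6 was above control at each time, by 0.58, 0.24 and 0.83, although the arms overlapped because both were lowest at 6 h. The IL-6 estimate was 0.55 ± 0.18 (limma adjusted p = 0.394).

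NPC1 rose with time: its 24 h minus 6 h estimate over both arms was 1.22 ± 0.23 (limma adjusted p = 0.027). It was the 1 member of 36 called there, in a comparison in which 1.63% of all tested genes were called higher and 0.296% lower. The IL-6 arm gained 1.05 and the control arm 1.39 between 6 and 24 h. Between 24 and 48 h the IL-6 arm changed by -0.16 and the control arm by -0.75. The call was lost with no level filter, no variance trend or non-robust moderation, and without any 1 of the 6 h or 24 h libraries. With either 48 h library left out, GLB1, NEU1, NPC1 and TPP1, 4 of 36 members, were called higher, as were 3.09% of all tested genes in that fit. RMC1 overlaps NPC1 on the other strand.

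CD68, the heavily glycosylated macrophage protein of late endosomes, had values of -0.0046, -0.23 and -0.12 in IL-6 libraries, against 0.19, 0.11 and 0.05 in control libraries. Its arms did not overlap, and the differences of -0.2, -0.34 and -0.17 gave an estimate of -0.24 ± 0.1 (limma adjusted p = 0.549). SCARB2, also called LIMP-2, the membrane receptor that carries glucocerebrosidase to the lysosome, had values of -0.07, 0.02 and -0.29 in IL-6 libraries and 0.28, 0.26 and -0.2 in control libraries. The differences were -0.35, -0.24 and -0.09, with an estimate of -0.22 ± 0.13 (limma adjusted p = 0.67).

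ATP6AP1, an accessory subunit of the proton pump, had values of -0.27, -0.07 and 0.25 in IL-6 libraries and -0.29, 0.28 and 0.1 in control libraries. Both arms were lowest at 6 h, and the 48 h minus 6 h estimate was 0.46 ± 0.15 (limma adjusted p = 0.113). The pump subunits ATP6V0D1 and ATP6V1H were lower with IL-6 at 6 h (-0.18 and -0.1) and 24 h (-0.08 and -0.2) and higher at 48 h (0.11 and 0.47). MCOLN1, the calcium channel mucolipin 1, differed by 0.05, -0.61 and 0.32.

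Of the glycoproteins of the wall LAMP1, LAMP2 and CD63, none was past 1.5-fold at any time. LAMP1, whose promoter holds 6 runs of CACGTG, differed by -0.03, -0.04 and -0.02 between IL-6 and control at 6, 24 and 48 h. LAMP2 differed by -0.19, -0.28 and 0.1. CD63, a tetraspanin of late endosomes, was 0.06, 0.11 and 0.21 higher with IL-6, the 1 member whose IL-6 values all lay above the control values; CD63-AS1 overlaps it on the other strand.

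GRN encodes progranulin, a secreted growth factor that is also carried to the lysosome and cut there into granulins (chromosome 17, 44345246 to 44353106, plus strand). Its values were -0.08, -0.42 and -0.21 in IL-6 libraries at 6, 24 and 48 h, against 0.18, 0.31 and 0.22 in control libraries. Every IL-6 library was below every control library. The differences were -0.26, -0.72 and -0.43 and the estimate was -0.47 ± 0.12 (unadjusted p = 0.00241, limma adjusted p = 0.234), the smallest adjusted p of any member for IL-6.

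NPC2, the soluble cholesterol carrier that hands its load to NPC1, had values of -0.31, -0.02 and -0.04 in IL-6 libraries and -0.12, 0.31 and 0.19 in control libraries. It was lower with IL-6 at each time, where NPC1 was higher, with differences of -0.19, -0.33 and -0.23, and its estimate was -0.25 ± 0.1 (limma adjusted p = 0.506). TFEB, the transcription factor of lysosomal genes, had values of -0.25, -0.25 and 0.33 in IL-6 libraries and -0.11, 0.16 and 0.12 in control libraries. The differences were -0.13 and -0.42 at 6 and 24 h and 0.21 at 48 h, and the estimate was -0.11 ± 0.18 (limma adjusted p = 0.903).

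Between 24 and 48 h most lysosomal genes were higher with time in the IL-6 arm and lower with time in the control arm. In the IL-6 arm 22 of 36 members were higher at 24 h than at 6 h (55.5% of all tested genes were), with a median of 0.08, and 27 of 36 were higher at 48 h than at 24 h (49.8% of all tested genes), with a median of 0.17. In the control arm 24 of 36 were higher at 24 h than at 6 h, a share near the 64.1% of all tested genes, with a median of 0.24 against 0.15 over all tested genes, and 7 of 36 were higher at 48 h than at 24 h (43.5% of all tested genes), with a median of -0.14. With the library medians set equal, the control counts became 19 higher at 24 h than at 6 h (median 0.09) and 12 higher at 48 h than at 24 h (median -0.09). The IL-6 counts became 19 (median 0.02) and 27 (median 0.19). Of the 13511 tested genes, 6862 and 6833 were then higher over those spans in the control arm. In the IL-6 arm 6750 and 6937 were. From 6 to 24 h the members' share was thus near that of all tested genes in both arms. From 6 to 48 h the IL-6 arm had 28 members higher (53.6% of all tested genes were) and a median of 0.27, and the control arm 17 higher (58.5%) and a median of -0.01. Past 1.5-fold over that span 8 members were higher in the IL-6 arm (18.5% of all tested genes were) and 2 in the control arm (15.7%).

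**Figure D5:**
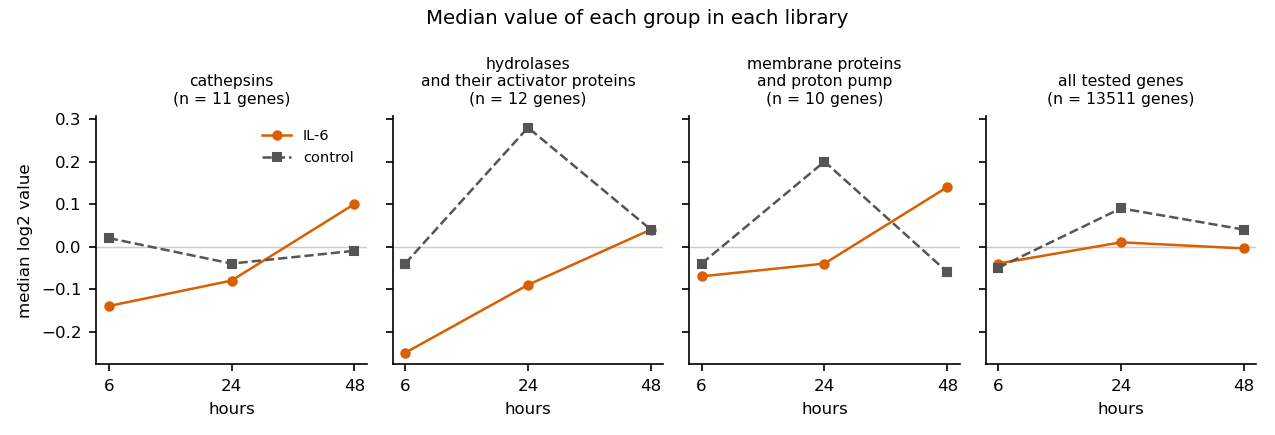
Median deposited log2 value of the 11 cathepsins, 12 tested hydrolases, 10 membrane proteins and pump subunits, and 13511 tested genes in each library, by time (x axis, hours) and arm (IL-6, orange circles and solid line; control, grey squares and dashed line); 1 library per point. Hydrolases start at -0.25 with IL-6 and -0.04 in control at 6 h, and both arms are at 0.04 at 48 h.

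By class, the hydrolase median was -0.25, -0.09 and 0.04 in IL-6 libraries at 6, 24 and 48 h, against -0.04, 0.28 and 0.04 in control libraries. The membrane protein median was -0.07, -0.04 and 0.14 with IL-6 and -0.04, 0.2 and -0.06 in control. The cathepsin median was -0.14, -0.08 and 0.1 with IL-6 and 0.02, -0.04 and -0.01 in control. These medians describe the classes, since each point rests on 1 library.

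Whether the IL-6 effect itself changed with time was tested with interaction terms, which left 1 degree of freedom for the spread. The effect at 48 h minus its mean at 6 and 24 h was positive in 33 of 36 members (50.3% of all tested genes), with a median of 0.26, and it was positive in 12 of 12 hydrolases, 10 of 10 membrane proteins and 8 of 11 cathepsins. Still, 0 members passed limma's test (0.0518% of all tested genes did), and at an unadjusted p under 0.05 there were 6 members, all positive, where 3.31% of all tested genes were positive at that level. The largest estimate was that of CTSB, 0.94 (limma adjusted p = 0.148). The effect at 6 h against the mean of 24 and 48 h gave 0 members by the adjusted p (0.229% of all tested genes) and 0 at an unadjusted p under 0.05 (4.0%).

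The wider lysosomal system was read from 7 lists with 138 tested genes. For IL-6 over the 3 pairs 0 of the 138 passed limma's test, and 3 were higher and 13 lower at an unadjusted p under 0.05, where 3.72% and 5.31% of all tested genes were. Over time 1 of the 138 was called higher at 24 h and 1 at 48 h, both times PLA2G15, where 1.63% and 2.51% of all tested genes were called higher. The 33 other lysosomal hydrolases had 24 negative estimates (56.0% of all tested genes were negative) and a median of -0.16, close to the -0.13 of the hydrolases above. CTSV, cathepsin V, had values of 0.41, -0.93 and -0.69 in IL-6 libraries, against 0.66, 0.32 and 0.23 in control libraries, and an estimate of -0.81 ± 0.21 (limma adjusted p = 0.248). SGSH, the heparan N-sulfatase, had 0.06, -0.14 and 1.24 in IL-6 libraries and -0.21, -0.41 and -0.54 in control libraries, and its estimate was 0.77 ± 0.49 at a mean level of 1.24.

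PLA2G15, the lysosomal phospholipase A2, was called over time. Its values were -1.19, 0.01 and 0.3 in IL-6 libraries at 6, 24 and 48 h, against -0.49, 0.56 and 0.8 in control libraries. It was 1.12 ± 0.15 higher at 24 h than at 6 h (limma adjusted p = 0.00611) and 1.39 ± 0.15 higher at 48 h than at 6 h (limma adjusted p = 0.0023) over both arms. IL-6 was lower at each time, with differences of -0.7, -0.55 and -0.5 and an estimate of -0.59 ± 0.12 that did not pass the test (limma adjusted p = 0.146). The 24 h call was lost without either 24 h library (limma adjusted p = 0.0649 without IL-6 24 h and 0.0804 without control 24 h), and both calls were lost with no variance trend (0.209 and 0.199).

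The inhibitors of papain-type cathepsins differed in both directions. CST7 encodes cystatin F, which is carried into the lysosome and restrains cathepsins C, H and L there. Its values were -0.42, 0.7 and 1.88 in IL-6 libraries, against -0.89, -1.04 and -0.23 in control libraries, and IL-6 was higher at each time, by 0.47, 1.75 and 2.1. Its effect at 6 h was smaller than the mean of the effects at 24 and 48 h by an estimate of -1.45 ± 0.31 (limma adjusted p = 0.0444), a call that was lost with no level filter, equal library medians or no variance trend. Over the 3 pairs the estimate was 1.44 ± 0.39 (limma adjusted p = 0.484). Without the 6 h pair, which had the smallest difference, it was 1.93 (limma adjusted p = 2.63e-07). That fit rests on the 24 and 48 h pairs alone. The estimate was 1.29 without the 24 h pair (limma adjusted p = 0.966) and 1.11 without the 48 h pair (limma adjusted p = 0.574). CST3, the secreted cystatin C, was lower with IL-6 at each time, with 0.0039, -0.2 and -0.39 in IL-6 libraries and 0.14, 0.2 and 0.25 in control libraries and an estimate of -0.39 ± 0.12 (limma adjusted p = 0.344).

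In each of the remaining lists 0 genes passed the test for IL-6. Among 23 other membrane proteins the median estimate was -0.11; SLC15A3, a peptide and histidine transporter, was 0.39, 0.36 and 1.44 higher with IL-6, and TPCN1, a cation channel, had differences of -0.43, -0.58 and -0.16. Among 15 other pump subunits the median was -0.02, with ATP6V0A1 at -0.77, -0.72 and 0.53 and ATP6V1G1 at 0.17, 0.36 and 0.14. Among 17 sorting genes 14 estimates were negative, against 56.0% of all tested genes, with a median of -0.09; GGA2, an adaptor of mannose 6-phosphate receptors, differed by -0.27, -0.63 and -0.19, and NAGPA, which uncovers the mannose 6-phosphate tag, by 0.52, -0.63 and 0.91.

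For the factors that control lysosomal genes, the MiT/TFE family with mTORC1 and its regulators, 9 of 21 estimates were positive and the median was -0.01. FLCN, folliculin, was higher with IL-6 by 1.07, 0.51 and 0.6 at a mean level of 2.87, and ZKSCAN3, a repressor of autophagy genes, had differences of -0.65, -1.02 and -0.2 at a mean level of 1.49. Among 25 autophagy genes the median was -0.1. WIPI1 differed by -2.21, -1.44 and 1.65 and GABARAPL1 by -1.47, -1.13 and 1.31, at mean levels of 3.56 and 1.83. Both were lower with IL-6 at 6 and 24 h and higher at 48 h, as TFEB and 13.5% of all tested genes were. WIPI1 and GABARAPL1 had estimates over the pairs of -0.67 ± 0.84 and -0.43 ± 0.54. For the effect at 48 h minus its mean at 6 and 24 h, 0 of the 25 passed limma's test, and the highest estimate was 3.47. With log2(level + 1) that contrast was 2.54 ± 0.47 for WIPI1 (limma adjusted p = 0.0416). The share of all tested genes called is not given for that setting. A link to TFEB was not tested.

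Of the 37 members, 14 overlap another tested gene by the tables' coordinates, 10 of them on the other strand, and reads there cannot be told apart in libraries that do not mark strand. Those 10 are CTSA, CTSC, CTSZ, CD63, CD68, NPC1, NPC2, GM2A, LIPA and TPP1. Of the 12 monocyte markers 5 had a positive IL-6 estimate and 7 a negative one, with a median of -0.15; 3 were higher with IL-6 at all 3 times, 3 were lower at all 3, and 1 passed the test. The 2 with the largest estimates were CD14 and FCGR1A: CD14 was higher by 0.71, 1.74 and 3.76, and FCGR1A by 0.66, 0.68 and 0.61 (estimate 0.65 ± 0.1, limma adjusted p = 0.0354). Their part in the lysosomal differences was not tested.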

How the data were processed

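RNA from 6 THP-1 cultures (IL-6 or control at 6, 24 and 48 h) was amplified by SMART-seq v4 and made into Nextera XT libraries, per the labels' protocols; such libraries do not mark strand. The deposited values are log2 signals centred on each gene by the authors (largest absolute mean of a gene 1.8e-07). The build is GRCh38, per the submitters' processing notes; for the aligner, the counter and the scaling, nothing is given in the sources used here. Depth is unknown, so no counting interval is given.

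Levels were recovered by finding whole-number ratios between a gene's 6 values in steps of 0.001 of an arbitrary unit up to 100, which gave 15597 genes and 106 more with a library at the floor. Of 2000 decoy genes 132 were matched by accident, none with a mean level under 34.1. The 1685 unmatched genes were taken as high. Genes valued in all libraries and averaging a level of 1 or more were fitted with limma 3.58.1 in R 4.3.3, with time and agent as terms over all 6 libraries, robust empirical Bayes and a variance trend on log2 level (2 residual degrees of freedom, median prior 8.1), and Benjamini-Hochberg adjustment at 0.05. The IL-6 effect by time was fitted as 1 contrast at a time. The code was tested on simulated data. Tables and figures used Python 3.11.15 with pandas 2.3.3 and matplotlib 3.10.9.

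Every member is named. Values in all 6 libraries are given for members called in a fit reported here, the 3 members of each class with the largest IL-6 estimate, the 2 with the largest 48 h minus 6 h estimate and those past 1.5-fold the same way at 2 or more times; from each other list the called genes and the 2 with the largest IL-6 estimate are named. Largest means in size, either sign. CTSD was added after its values were seen. The members and lists were chosen with earlier results of these data known. The alternatives were other level filters, equal library medians, no trend, non-robust moderation, log2(level + 1), a model without the time term, and leaving out libraries or pairs. One marker list is not reported here.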

Additional observations from a re-analysis of the deposited data

Results flagged for a closer look

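LGMN, legumain, was far lower with IL-6 at 6 h (-4.73) and at 24 h (-1.27) and higher at 48 h (2.1). It stands out because the IL-6 and control libraries differed in opposite directions at different times, each by more than 1.5-fold. The difference between times was not tested, since LGMN was below the level filter with a mean level of 0.46.

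CST7, cystatin F, stands out because its IL-6 effect at 6 h differed from the mean of its effects at 24 and 48 h by -1.45 (limma adjusted p = 0.0444, 1 residual degree of freedom). IL-6 was higher than control at each of the 3 times. The call was lost with no level filter (adjusted p = 0.0661), with the library medians set equal (0.0777) and with no variance trend (0.764).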

How the results depend on the processing

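The IL-6 test pairs the arms by time, and without the time term the count of members called was 0 as well; a block by replicate number could not be added because each group is 1 library. That count was 0 under every alternative run, while the context genes gave 0 to 3 calls when pairs were left out (CST7, CTSV and DNASE2 without the 6 h pair). Members called for 24 h minus 6 h (1) became 0 with no level filter, no variance trend or non-robust moderation, and 2 with a mean level of at least 5 or with log2(level + 1), where NEU1 joined NPC1; they ranged from 0 to 4 when single libraries were left out. Members called for 48 h minus 6 h (1) became 0 with no level filter, equal library medians, no variance trend or non-robust moderation, and ranged from 0 to 6 when single libraries were left out. Leaving out the libraries of the time not compared was chosen after seeing the data. The share of all tested genes called is not given for the fit without the 6 h pair. Nor is it given for a mean level of at least 5 or for log2(level + 1). The counts called in those fits are therefore not read as results about the members or lists. Members past 1.5-fold at 24 h (5, all lower) became 3 with equal library medians. Of the 13511 tested genes 1391 were then that much lower and 1313 higher. At 2-fold the members at 24 h became 0, where 577 of all tested genes were lower and 375 higher. With log2(level + 1) they became 2, and the share over all tested genes is not given for it. The 3 at 48 h became 0 at 2-fold, where 440 of all tested genes were lower and 475 higher. With log2(level + 1) the members past 1.5-fold at 48 h became 2, both higher, so CTSK was no longer among them. The share over all tested genes is not given for that either. The cathepsin median at 24 h became -0.04 with equal library medians, and 5 promoters in place of 9 held the longer palindrome. The IL-6 estimate of CTSB ranged from -0.0038 (without the 48 h pair) to 0.51 (without the 6 h pair). The cause of these changes was not tested. With 1 library a group and unknown depth, small differences and those of scarce genes such as CTSK are the least certain.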
